A study of Mus musculus with 16 samples.

Results

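Secreted antagonists of bone morphogenetic proteins (BMPs) and activins were read out in the transcriptomes of mouse TM4 cells. The members were listed by symbol, not by their values: *Fst*, *Fstl3*, *Fstl1*, *Grem1*, *Nbl1*, *Nog*, *Chrd*, *Twsg1* and *Bmper*, 9 of the 56748 genes in the table of counts. All 9 symbols were found, and 8 of them had reads. TM4 is an established line derived from Sertoli cells, the somatic cells that support germ cells in the testis tubules. The cells were transfected 24 h after seeding with 2.5 µg of plasmid per well by lipofection, and RNA was taken another 24 h later. The EV group (6 samples) received the empty expression vector pcDNA3.1-HA. The gdf6Y group (5 samples) received pcDgdf6Y, which carries *gdf6Y*, the BMP-family gene that acts as male sex determinant in the turquoise killifish. The del9 group (5 samples) received pcDgdf6Ydel9, whose *gdf6Y* lacks 9 bases without loss of the reading frame. All cells stayed wild type apart from the plasmid, the transfections were transient and came from 1 cell line, and the share of cells that took up plasmid was not given. The labels number the replicates but do not say what a number stands for, so the spread between these samples may be technical. P-values of the first edgeR test below take this spread almost wholly from other genes, so they can miss that of a single gene.

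BMPs and activins are secreted dimers that bind pairs of type I and type II serine/threonine kinase receptors. BMP receptors phosphorylate Smad1, Smad5 and Smad9, and activin receptors phosphorylate Smad2 and Smad3. Antagonists bind these ligands outside the cell and keep them from their receptors. Follistatin, the product of *Fst*, binds activins tightly and several BMPs more weakly. It is best known for its role in the ovary and as a blocker of activin-stimulated follicle-stimulating hormone release. *Grem1* and *Nbl1* encode proteins of the DAN family, *Nog* encodes noggin, and the product of *Chrd*, chordin, holds BMPs in a complex with the product of *Twsg1*.

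The libraries held between 21486850 and 26444903 counted reads each. To normalize a count, it was divided by its library size after TMM scaling (trimmed mean of M values) and multiplied by the mean scaled library size of all 16 samples. Of 13 Sertoli cell markers, 6 had at least 10 reads in every EV sample, while the defining markers *Wt1* and *Dmrt1* had no read in any sample. The summed normalized count of this list was 1694 to 1779 in EV, 1512 to 1629 in gdf6Y and 1583 to 1739 in del9 samples. For peritubular myoid cells, the contractile cells around the tubules, 4 of 5 markers had at least 10 reads in every sample, and their sum was 8500 to 8847 in EV, 9183 to 9780 in gdf6Y and 8862 to 9665 in del9 samples. Their part in the differences below was not tested. Summed markers of granulosa cells reached at most 6.69 normalized counts, those of Leydig cells 35.8 and those of germ cells 6.56. The table lists mouse genes, so RNA from the plasmids was not measured, and no read was counted on the mouse gene *Gdf6* in any sample.

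Promoter sequence is shown for *Nbl1* and *Fstl3*, whose means lay above that of EV with both plasmids, and for *Grem1*, whose window held matches of both motifs searched. The RefSeq table (assembly GRCm38.p6) has a window for 7 of the 9 members, not for *Fst* or *Nog*. Capitals mark GGCGCC, a GC-rich sequence that BMP-activated Smads can bind, and CAGAC or its complement GTCTG, the Smad binding element. Each line holds the 250 bases before the transcription start, on the strand of the gene.
Nbl1 (chr4:139092971-139093220, - strand): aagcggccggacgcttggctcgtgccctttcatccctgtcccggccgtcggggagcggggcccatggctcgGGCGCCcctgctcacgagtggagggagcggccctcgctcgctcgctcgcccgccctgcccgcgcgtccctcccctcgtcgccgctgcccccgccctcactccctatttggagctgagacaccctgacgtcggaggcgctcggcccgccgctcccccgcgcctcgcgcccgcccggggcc
Fstl3 (chr10:79777024-79777273, + strand): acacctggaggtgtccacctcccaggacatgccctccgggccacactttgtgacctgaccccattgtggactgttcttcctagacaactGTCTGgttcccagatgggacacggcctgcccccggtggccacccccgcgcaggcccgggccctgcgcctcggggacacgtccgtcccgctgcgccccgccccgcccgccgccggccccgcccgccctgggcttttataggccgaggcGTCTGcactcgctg
Grem1 (chr2:113758649-113758898, - strand): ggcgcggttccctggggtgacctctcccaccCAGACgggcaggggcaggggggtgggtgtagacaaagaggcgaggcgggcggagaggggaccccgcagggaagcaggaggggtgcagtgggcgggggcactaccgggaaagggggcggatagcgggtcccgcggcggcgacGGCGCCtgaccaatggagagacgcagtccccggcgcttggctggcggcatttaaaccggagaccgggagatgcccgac

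GGCGCC reads the same on both strands and was found in 3 of the 7 windows, those of *Nbl1*, *Grem1* and *Chrd*, against 9.59% of all 32851 windows in the table. CAGAC or GTCTG was found in 3 of the 7, those of *Fstl3*, *Grem1* and *Twsg1*, against 42.2% of all windows. The GC content of the 7 windows was 64.4% to 78%, with a median of 52.4% over all windows. In *Grem1* the motifs began 78 and 219 bases before the start and did not overlap, and in *Nbl1* the single match began 179 bases before it. These matches are letters in a window and were not tested as binding sites.

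Without *gdf6Y*, the antagonist genes of TM4 cells spanned a wide range of levels. Per kilobase of exonic length, the normalized count in EV samples was 962 ± 16.6 (SD, n = 6) for *Twsg1* and 873 ± 89.8 (SD, n = 6) for *Grem1*, whose ranges overlapped. *Fstl1*, which encodes a secreted glycoprotein with a follistatin-like domain, followed at 606 ± 11.9 (SD, n = 6) per kilobase. The length is that of all annotated exons of a gene, and the order depends on it. By normalized count alone, *Fstl1* had the highest EV mean of the members, 6113 beside 5039 for *Twsg1*. *Fstl3*, whose product binds activins like follistatin does, was at 572 ± 23.4 (SD, n = 6), and these 2 ranges overlapped as well. *Bmper*, a chordin-like protein of the extracellular space, was at 178 ± 8.43 (SD, n = 6), *Fst* at 99.7 ± 13.5 (SD, n = 6), *Nbl1* at 76.5 ± 3.73 (SD, n = 6) and *Chrd* at 6.4 ± 0.662 (SD, n = 6), with no overlap between neighbours in this order. *Twsg1* was thus at or above 96.7% of the genes with a read in any sample and an exonic length, in level per kilobase, and *Chrd* at or above 54.5%. *Nog* (chr11:89191464-89193158, GRCm39) had 0 of the 394478886 reads counted over all samples. A count of 0 allows up to 0.0076 CPM (3 counts of the total), a limit that covers counting error only.

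**Figure D1:**
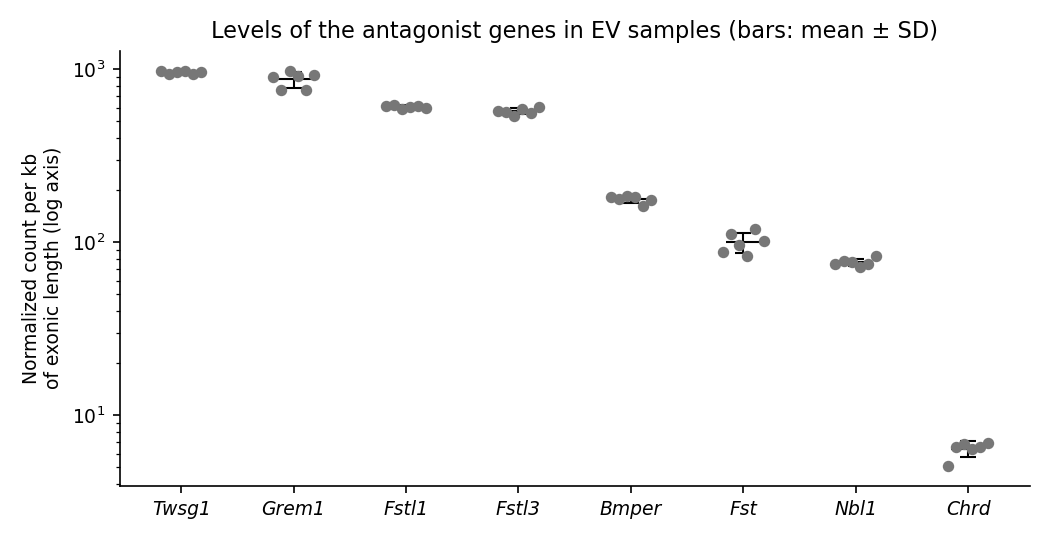
Level of each detected antagonist gene in the 6 EV samples, as normalized count per kilobase of exonic length on a log axis. Points are samples, and bars give mean and SD. *Twsg1* and *Grem1* lead at 962 and 873, and *Chrd* is lowest at 6.4.

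Each group was compared with each other group using the quasi-likelihood test of edgeR. P-values were adjusted over all genes tested by the Benjamini-Hochberg procedure, and a gene with an adjusted p below 0.05 was called. The comparison of gdf6Y with EV asks what the killifish gene changes in these cells, the comparison of gdf6Y with del9 what changes beyond the mutant, and that of del9 with EV what the mutant plasmid changes. The 3 comparisons share samples, so their values are given side by side and are not independent of each other. Reads of pooled cells cannot tell fewer expressing cells from less RNA per cell. In gdf6Y against EV, 1 of the 8 antagonist genes tested was called (*Nbl1*, higher), where 5.08% of all 26316 genes tested (1.7% higher, 3.38% lower) and 12.2% of those whose mean normalized count reached 50 were called. In gdf6Y against del9, 1 of 8 was called (*Fst*, lower), where 1.01% of 25878 genes (0.599% higher, 0.41% lower) and 1.92% of those whose mean reached 50 were called. In del9 against EV, 3 of 8 were called (*Fst*, *Fstl3* and *Nbl1*, all higher), where 9.25% of 26226 genes (4.82% higher, 4.43% lower) and 20.6% of those whose mean reached 50 were called. No antagonist gene had groups whose samples did not overlap in any comparison, where 2.61%, 1.29% and 3.77% of all genes did, in the order above. The median log2 fold change over the 8 genes was 0.038, 0.018 and -0.026, beside -0.002, 0.01 and -0.005 over all genes tested.

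Same-numbered samples deviated together in the comparisons of gdf6Y with EV and of gdf6Y with del9, and a fit with the replicate number as a block was therefore set beside the first one for these comparisons. With the block, 3 antagonist genes were called in gdf6Y against EV (*Fst*, *Fstl3* and *Nbl1*, all higher; 8.11% of all genes), without EV replicate 6, which has no partner. In gdf6Y against del9, 2 were called with the block (*Fst* lower, *Fstl1* higher; 2.55% of all genes).

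**Figure D2:**
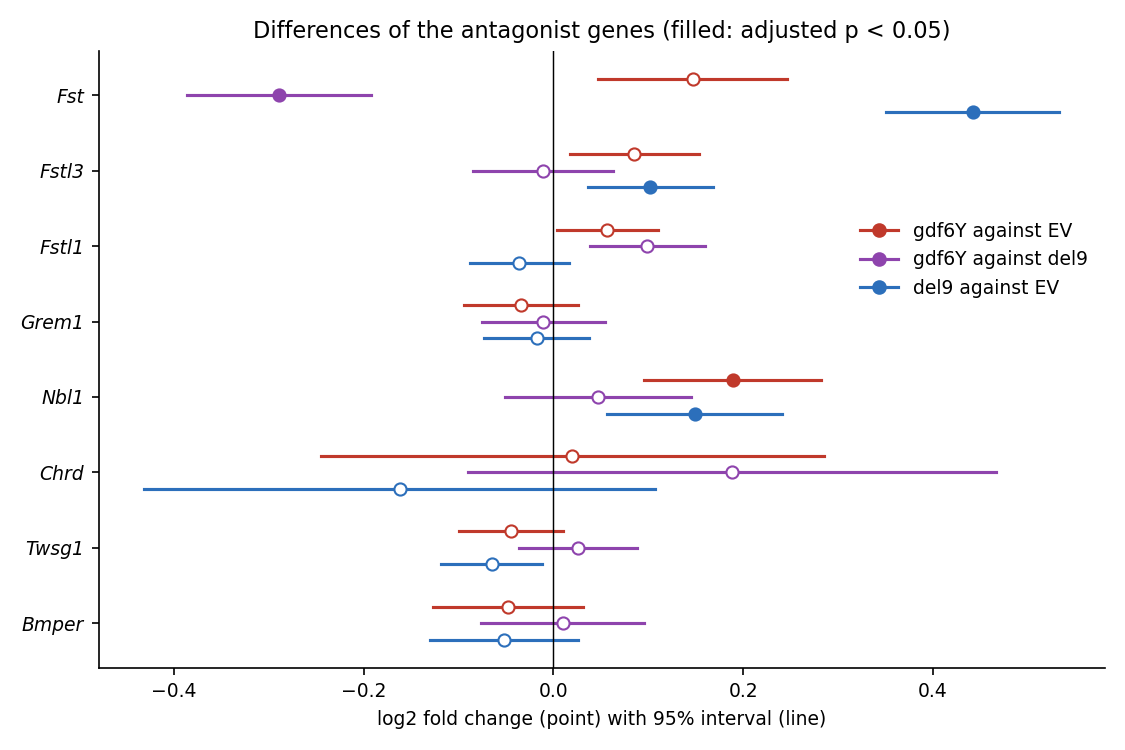
Log2 fold change (points) and 95% interval (lines) of the 8 detected antagonist genes in the 3 comparisons, from the fit without the block; filled points have an adjusted p below 0.05. *Fst* lies at 0.44 in del9 against EV and at -0.29 in gdf6Y against del9, and the other filled points lie between 0.10 and 0.19.

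*Fst* (ENSMUSG00000021765, chr13:114588731-114595521, GRCm39, - strand) had the largest log2 fold changes among the antagonist genes in both comparisons that involve the mutant. Normalized counts in EV samples ran from 394.8 in replicate 4 to 560.3 in replicate 5, with a median of 466.2. In gdf6Y samples they were 388.3, 592.5, 539.1, 471.8 and 612.6 in replicates 1 to 5. In del9 samples they were 525, 685.9, 660.6, 589.8 and 725.3. The del9 samples were high and the EV samples low, with overlap: the lowest del9 sample lay below the highest EV sample, and the gdf6Y samples lay across both groups.

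The mean normalized count of *Fst* was 470.5 ± 63.7 (SD, n = 6) in EV, 520.9 ± 92 (SD, n = 5) in gdf6Y and 637.3 ± 79.9 (SD, n = 5) in del9 samples. Against EV, *Fst* rose 1.36-fold in del9 samples (log2 fold change 0.44, SE 0.0465, adjusted p = 2.13e-18, edgeR), and it was called in all 11 fits that left out 1 library, with log2 fold changes of 0.389 to 0.502. Against del9, *Fst* was lower in gdf6Y samples by a factor of 0.818 (log2 fold change -0.29, SE 0.0495, adjusted p = 2.26e-06, edgeR), with -0.358 to -0.2 and a call in all 10 fits that left out 1 library. Against EV, *Fst* in gdf6Y samples had a log2 fold change of 0.15 (SE 0.0508, 95% interval 0.047 to 0.246, adjusted p = 0.0694, edgeR). This value was called with the block (0.156, adjusted p = 0.0143, edgeR) and in 4 of 11 fits that left out 1 library (EV replicate 2 or 5, or gdf6Y replicate 1 or 4). Its range over the 11 was 0.083 to 0.241, the highest without gdf6Y replicate 1 (adjusted p = 0.000114, edgeR).

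Within replicate numbers, *Fst* was lower in gdf6Y than in del9 in 5 of 5 pairs, with log2 differences of -0.433 to -0.211. It was higher in gdf6Y than in EV in 4 of 5 (-0.087 to 0.256), with replicate 1 as the exception. The spread within a group was thus larger than within a number: the quasi-likelihood dispersion, the spread beyond what the model expects, estimated from *Fst* alone in gdf6Y against del9 was 7.36 without and 0.767 with the block. The test without the block used 0.902, a value drawn almost wholly from other genes, so its SE is small beside the gene's own spread. The call of gdf6Y against del9 ended under both DESeq2 and a stricter filter on low counts. With DESeq2 the log2 fold change was -0.283 (SE 0.145, adjusted p = 0.725, DESeq2), and with that filter, edgeR's filterByExpr, it was -0.286 (SE 0.102, adjusted p = 0.345, edgeR). With the block and that filter together it was called again (-0.286, SE 0.0406, adjusted p = 9e-04, edgeR). In del9 against EV, the dispersion from *Fst* alone was 5.34 and the test used 0.911, so the SE of 0.0465 is small there too. The fits that left out 1 library used the same test. In this comparison *Fst* stayed called with DESeq2 (0.435, SE 0.112, adjusted p = 0.00181, DESeq2) and with filterByExpr (0.435, SE 0.0831, adjusted p = 0.0022, edgeR).

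**Figure D3:**
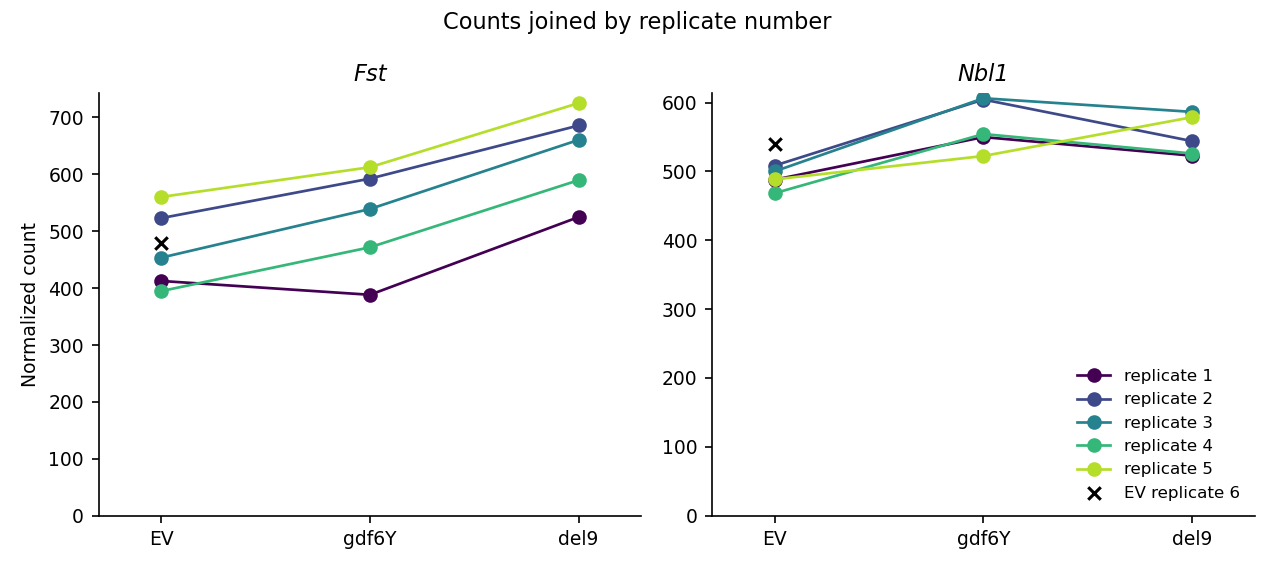
Normalized counts of *Fst* and *Nbl1*, with samples of the same replicate number joined by a line; EV replicate 6 has no partner and is drawn as a cross. Every *Fst* line climbs from gdf6Y to del9, and every *Nbl1* line climbs from EV to gdf6Y.

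*Nbl1* (ENSMUSG00000041120, chr4:138809243-138820367, GRCm39, - strand) was higher than in EV with both plasmids. In EV samples its normalized counts ran from 468.5 to 540.3, with a median of 494.4. In gdf6Y samples they were 550, 604.5, 606.4, 554.4 and 522.5, and in del9 samples 523, 544.1, 586.6, 526.1 and 578.9. All but 1 gdf6Y sample lay above the highest EV sample, EV replicate 6, and the del9 samples lay around it. Against EV, *Nbl1* rose 1.14-fold in gdf6Y samples (log2 fold change 0.19, SE 0.0475, adjusted p = 0.00296, edgeR) and was called in all 11 fits that left out 1 library and with DESeq2 (adjusted p = 0.009, DESeq2). Within replicate numbers it was higher in 5 of 5 pairs, by 0.097 to 0.277 on the log2 scale. In del9 samples *Nbl1* rose 1.11-fold (log2 fold change 0.15, SE 0.0473, adjusted p = 0.023, edgeR), a call lost without EV replicate 1, 4 or 5 or del9 replicate 3 or 5, at adjusted p values up to 0.126. Between gdf6Y and del9 the log2 fold change of *Nbl1* was 0.047 (95% interval -0.051 to 0.145, adjusted p = 0.724, edgeR).

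*Fstl3* (ENSMUSG00000020325, chr10:79613096-79618464, GRCm39, + strand) had a slightly higher mean than EV with both plasmids, on a base of more reads than *Fst*. Its normalized counts ran from 1325 to 1488 in EV samples, with a median of 1396. In gdf6Y samples they were 1536, 1352, 1543, 1502 and 1498, and in del9 samples 1517, 1464, 1409, 1573 and 1555. Of the gdf6Y samples, 4 lay above every EV sample and replicate 2 lay below the EV median. In del9 against EV, *Fstl3* rose 1.07-fold (log2 fold change 0.10, SE 0.0338, adjusted p = 0.0309, edgeR). This call was lost with DESeq2 (adjusted p = 0.0648, DESeq2), filterByExpr (0.0673), no filter (0.0669), 1 model for all groups (0.0523), a correction for gene length (0.0678), and without EV replicate 2, 3 or 5 or del9 replicate 1, 4 or 5 (highest adjusted p = 0.146, edgeR). In gdf6Y against EV its log2 fold change was 0.085 (SE 0.0345, adjusted p = 0.164, edgeR), and 0.104 with the block, where it was called (adjusted p = 0.0193, edgeR).

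*Fstl1* (ENSMUSG00000022816, chr16:37597105-37656876, GRCm39, + strand) had the narrowest spread of the follistatin group. Its normalized counts were 6362, 6186, 6321, 6502 and 6382 in gdf6Y samples and 6232, 5874, 5877, 5953 and 5810 in del9 samples, with 5949 to 6257 in EV samples (median 6135). The gdf6Y samples were high, the del9 samples low apart from replicate 1, which lay above the lowest gdf6Y sample. Between them the log2 fold change was 0.099 (SE 0.0309, adjusted p = 0.0918, edgeR). With the block it was called (adjusted p = 0.000839, edgeR), as it was with DESeq2 (0.102, adjusted p = 0.0308, DESeq2) and without del9 replicate 1 (0.115, adjusted p = 0.0274, edgeR). *Fstl1* was higher in gdf6Y than in del9 in 5 of 5 pairs of the same number, by 0.03 to 0.135. Against EV, the gdf6Y value was 0.057 (SE 0.027, adjusted p = 0.279, edgeR) and became 0.09 after correction for gene length (adjusted p = 0.0221, edgeR). Its exons span 10087 bases, and that correction also moved the split of all genes called in this comparison from 448 higher and 890 lower to 575 and 545. In del9 against EV it moved that split from 1263 higher and 1162 lower to 1445 and 857.

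**Figure D4:**
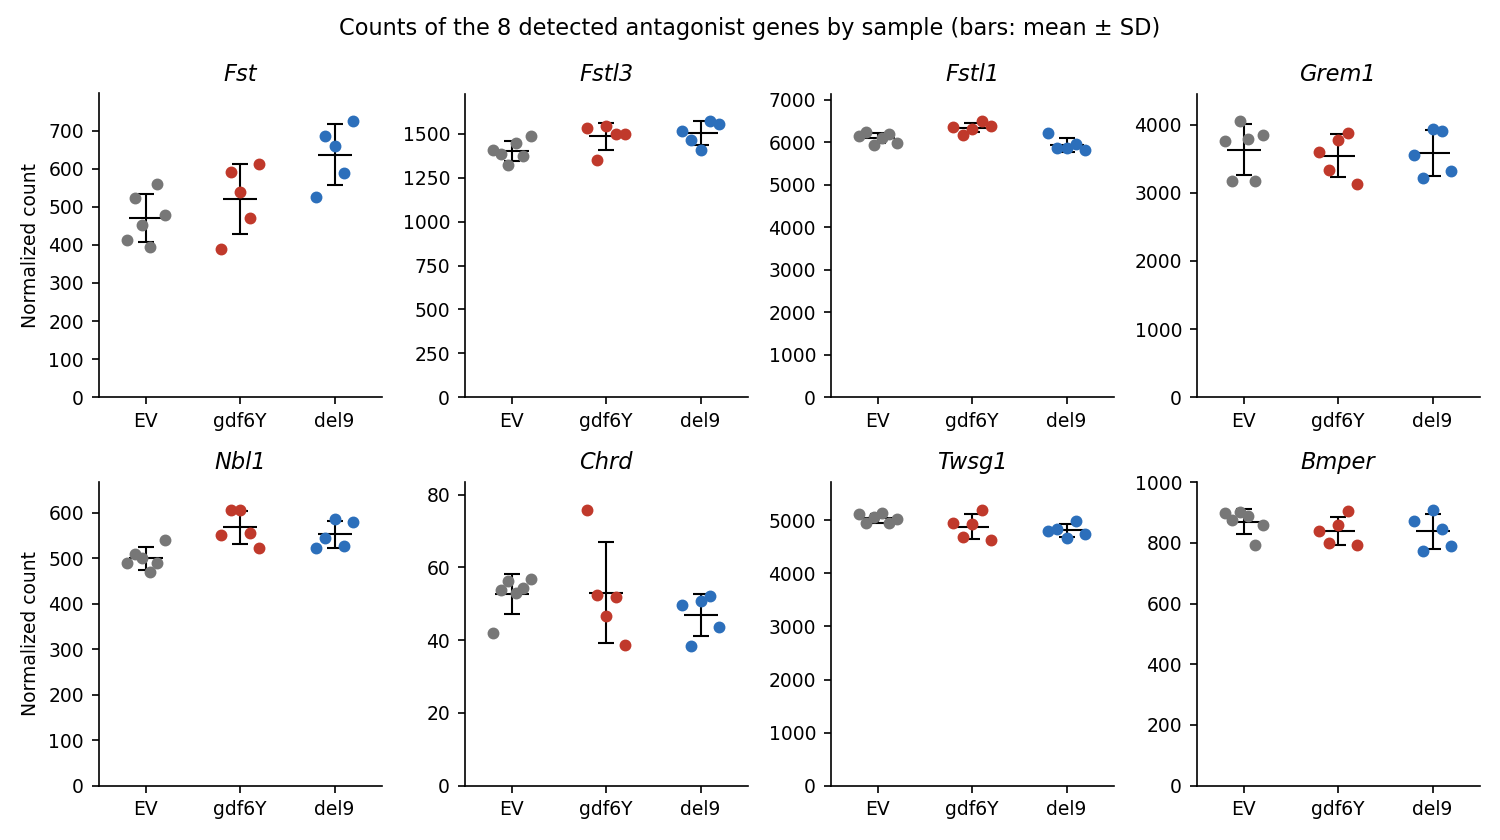
Normalized counts of the 8 detected antagonist genes by sample (points), with mean and SD (bars), for 6 EV, 5 gdf6Y and 5 del9 samples. The *Fst* panel has the highest points in del9, up to 725.3, and in no panel do the groups separate fully.

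*Grem1* (ENSMUSG00000074934, chr2:113576509-113589000, GRCm39, - strand), which encodes gremlin, a strong antagonist of BMP2 and BMP4, was not called in any comparison. Normalized counts were 3603, 3330, 3777, 3874 and 3121 in gdf6Y samples, 3547, 3212, 3936, 3902 and 3312 in del9 samples and 3164 to 4050 in EV samples (median 3775). The groups lay over the same range. The log2 fold change was -0.034 in gdf6Y against EV (95% interval -0.094 to 0.026) and -0.017 in del9 against EV (-0.073 to 0.038), and neither interval reached the 0.44 of *Fst* in del9 samples. As for *Fst*, the gene's own dispersion in gdf6Y against EV was above the one used (6.62 against 0.786), and with filterByExpr the SE was 0.0621 in place of 0.0305.

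*Twsg1* (ENSMUSG00000024098, chr17:66228966-66258380, GRCm39, - strand), whose product can strengthen or weaken the hold of chordin on BMPs, was not called by the test used here in any comparison, and its call in del9 against EV depended on the tool. Normalized counts were 4800, 4845, 4673, 4987 and 4739 in del9 samples, against 4941 to 5146 in EV samples (median 5039). All but 1 del9 sample lay below every EV sample. The log2 fold change was -0.065 (SE 0.027, adjusted p = 0.128, edgeR), and DESeq2 called it (-0.07, adjusted p = 0.0218, DESeq2), as did filterByExpr (-0.072, adjusted p = 0.036, edgeR). In gdf6Y samples the counts were 4944, 4688, 4939, 5202 and 4624, which spread around the EV samples, with a log2 fold change of -0.045 (adjusted p = 0.503, edgeR).

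*Bmper* (ENSMUSG00000031963, chr9:23134325-23396509, GRCm39, + strand) and *Chrd* (ENSMUSG00000006958, chr16:20550622-20561857, GRCm39, + strand) were not called in any comparison. *Bmper* was at 791.7 to 902.4 normalized counts in EV, 791.8 to 906.8 in gdf6Y and 774 to 909.8 in del9 samples, ranges that nearly coincided. Its log2 fold changes against EV were -0.048 (95% interval -0.127 to 0.031) for gdf6Y and -0.052 (-0.13 to 0.026) for del9. *Chrd* was at 42.03 to 56.87 in EV, 38.62 to 75.89 in gdf6Y and 38.32 to 52.23 in del9 samples. At this level its intervals were wide, from -0.245 to 0.285 in gdf6Y against EV and from -0.431 to 0.107 in del9 against EV.

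Exons of 3 members overlap exons of genes on the other strand, and the counting took strand into account. *Fst* shares 115 exonic bases with the antisense transcript *Gm47040*, *Fstl3* shares 1157 with *Prss57* on the other strand, and *Chrd* shares 1169 with *Thpo*, also on the other strand.

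The genes whose levels followed those of the called members most closely over the 16 samples were named by Pearson's r of log2 CPM among the 10779 genes whose mean count reached 50. The 16 samples share groups, replicate numbers and scaling, so r is a description. For *Fst* they were *Riok2* (r = 0.968), *Pa2g4* (r = 0.959) and *Rsl1d1* (r = 0.958). For *Fstl3* they were *Gtf2b* (r = 0.89), *Arln* (r = 0.842) and *Ten1* (r = 0.823), and for *Nbl1* *Actr1a* (r = 0.877), *Cops8* (r = 0.87) and *Tagln* (r = 0.854). *Tagln* is 1 of the 5 peritubular myoid markers above.

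The other genes of the pathway were read from a list of 78 genes by role, of which 57 were tested in gdf6Y against EV and 33 of these reached a mean normalized count of 50. Called were 8 higher and 4 lower, 21.1% of those tested, beside 5.08% of all genes tested and 12.2% of those whose mean reached 50. None of the 10 other secreted antagonists and binding proteins tested was called with DESeq2 or with edgeR without the block, and 1 had an unadjusted p below 0.05. With edgeR, 1 was called lower without EV replicate 1, EV replicate 4 or gdf6Y replicate 2. The most abundant of the 10 was *Ltbp1*, the latent TGF-β binding protein (9966 ± 494, SD, n = 5, in gdf6Y and 10520 ± 538, SD, n = 6, in EV samples). With the block *Ltbp1* was called (log2 fold change -0.074, adjusted p = 0.00437, edgeR). The protease *Bmp1*, which cuts chordin, was at 1366 ± 41.3 (SD, n = 5) against 1362 ± 52.1 (SD, n = 6). Of the ligands, the activin subunits *Inhba* (log2 fold change -0.095, adjusted p = 0.0237, edgeR) and *Inhbb* (-0.10, SE 0.0285, adjusted p = 0.0121, edgeR), which follistatin binds as dimers, were lower. Against del9 neither subunit was called by this test (-0.059 and -0.068, adjusted p = 0.654 and 0.522, edgeR). Also lower against EV were the receptor *Bmpr2* (log2 fold change -0.24, SE 0.0305) and the co-receptor *Tgfbr3* (log2 fold change -0.15, SE 0.0296), the latter with an adjusted p of 0.0592 in edgeR with filterByExpr. With no filter or the length correction, 3 pathway genes were called lower in place of 4. *Bmpr2* and *Tgfbr3* were also called lower in del9 against EV (log2 fold changes -0.196, SE 0.0291, and -0.236, SE 0.0281). Between gdf6Y and del9 neither was called without the block (-0.035 and 0.093). With the block, *Tgfbr3* was called higher in gdf6Y than in del9 (0.091, adjusted p = 0.0162, edgeR). The 8 higher genes in gdf6Y against EV were 3 of the 8 Smads and 5 of the 8 BMP-responsive genes tested.

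In gdf6Y against del9, 7 of 59 pathway genes tested were called, all higher and all Smads or BMP-responsive genes. These were 11.9%, beside 1.01% of all genes tested and 1.92% of those whose mean reached 50. Again none of the 11 other secreted antagonists and binding proteins tested was called with edgeR without the block or with DESeq2 (1 with an unadjusted p below 0.05). The 7 called were the inhibitory Smads *Smad6* and *Smad7*, the receptor-regulated *Smad9*, the inhibitors of basic helix-loop-helix factors *Id1*, *Id2* and *Id3*, and the transcription factor *Atoh8*. The paper had reported the *Id* genes and *Smad6*, *Smad7* and *Smad9* as higher in TM4 cells with *gdf6Y*. The list was chosen with such results known, so these calls are not an independent finding. The log2 fold change of *Id1* was 0.90 (SE 0.0346) against EV and 0.65 (SE 0.0376) against del9, and that of *Atoh8* was 1.58 (SE 0.107) and 1.45 (SE 0.108), beside 0.19 for *Nbl1* against EV, the largest value of an antagonist gene with *gdf6Y* against EV. In del9 against EV, 2 pathway genes were higher (*Id1*, log2 fold change 0.26, and *Id2*, 0.15, adjusted p = 0.0412, edgeR) and 4 lower. These were 10.5% of 57 tested, beside 9.25% of all genes tested and 20.6% of those whose mean reached 50. Only 1 pathway gene was called higher with DESeq2, its size factors, no filter or the length correction, and 3 with filterByExpr. Among the lower was *Ltbp1* (-0.092, SE 0.0252, adjusted p = 0.00559, edgeR), a call lost with the correction for gene length (-0.065, adjusted p = 0.0992, edgeR). *Fst*, at 0.44, differed by more than any of these 6 genes.

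**Figure D5:**
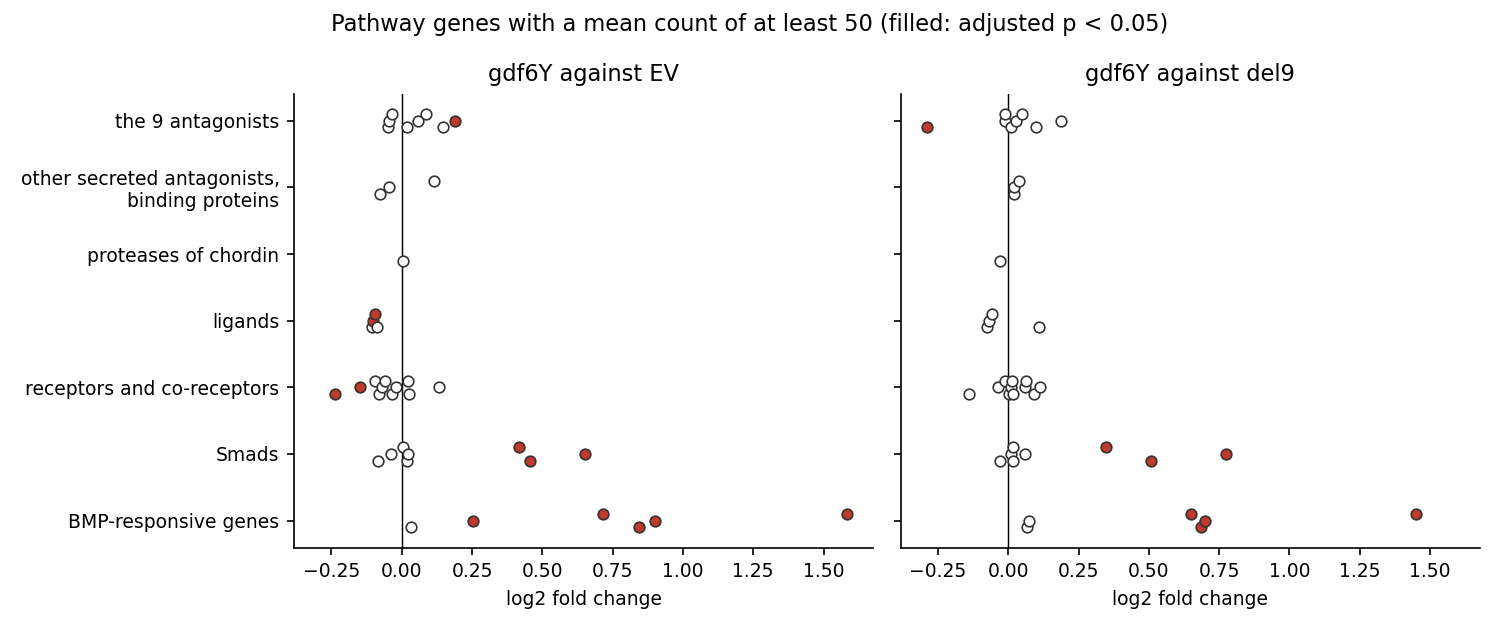
Log2 fold change of the pathway genes whose mean count reached 50, by role (rows), in gdf6Y against EV (left) and gdf6Y against del9 (right); filled points have an adjusted p below 0.05 and the top row holds the 8 detected of the 9 antagonists. The filled points of the Smads and BMP-responsive genes lie to the right of those of the antagonists, up to 1.58 for *Atoh8*. The list was chosen with earlier results of these data known.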

How the data were processed

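RNA-Seq counts of 16 samples of TM4 cells (6 EV, 5 gdf6Y, 5 del9) were analysed. Per the labels and methods, the authors aligned reads with STAR 2.7.10a to GRCm39, removed PCR duplicates by unique molecular identifiers with UMI-tools and counted uniquely mapped reads per gene and strand with featureCounts 2.0.3. They left out replicate 6 of gdf6Y and del9 for quality. The deposited values are whole-number counts without normalization, 21486850 to 26444903 per sample, and this depth bounds the precision of low genes such as *Chrd*. Replicates differed beyond sampling noise in all 35 pairs within groups (chi-square per degree of freedom 1.48 to 13.2). The highest values, 8.67 to 13.2, were those of gdf6Y replicate 1 with the other gdf6Y samples.

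Counts were tested with edgeR 4.0.16 in R 4.3.3 (TMM scaling, quasi-likelihood test, 2 groups per model, genes counted at least once in some sample compared, Benjamini-Hochberg adjustment over all genes tested). SE was derived from the log2 fold change and the F statistic. Symbols and exonic lengths came from GENCODE vM39, another release than the authors used (56017 of 56748 identifiers matched). The steps were run on simulated counts whose spread depended on the mean count alone, without replicate effects. Such counts cannot show how the test treats a gene like *Fst*, whose own dispersion was above the one used. Named are all members, the pathway genes called in both comparisons of gdf6Y, the most abundant gene of each role and, for each called member, the 3 genes most like it; *Inhba*, *Bmpr2*, *Gdf6* and the genes overlapping members were named after their values were seen. The members and lists were chosen with earlier results of these data known. A result for 1 pathway gene is not reported here.

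The labels give groups the same replicate numbers without saying what they mark. Deviations from group means over 10780 genes correlated between same-numbered samples at r = 0.111 to 0.37 (gdf6Y and EV) and 0.19 to 0.307 (gdf6Y and del9), above 0.1 in 5 of 5 pairs each. Not every sample was closest to its own number. The gdf6Y replicates 4 and 5 correlated best with an EV sample of another number, and gdf6Y replicate 2 with such a del9 sample. Alternatives were DESeq2 1.42.0, its size factors, filterByExpr, no filter, all groups in 1 model, the replicate block, a gene length correction, both together, and leaving out each replicate. The block with filterByExpr and edgeR 4's own dispersion estimate were added after seeing the data.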

Additional observations from a re-analysis of the deposited data

Results flagged for a closer look

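Of 24 groups of 5 or 6 samples tested (8 antagonist genes in 3 groups), 2 held a sample far from the others by Dixon's test, where chance gives about 1.2. *Fstl3* in gdf6Y replicate 2 was at 1352 normalized counts, while the other gdf6Y samples lay between 1498 and 1543 (gap over range 0.761). Without this sample the log2 fold change of *Fstl3* against EV was 0.118 (SE 0.0361, adjusted p = 0.0278, edgeR), and against del9 it turned from -0.011 to 0.02, uncalled. *Chrd* in EV replicate 1 was at 42.03, while the other EV samples lay between 52.84 and 56.87 (gap over range 0.728). Without it the log2 fold change of *Chrd* in gdf6Y against EV turned from 0.02 to -0.036, uncalled.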

How the results depend on the processing

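With the replicate block, which leaves out EV replicate 6 where EV is compared, 3 antagonist genes were called in gdf6Y against EV in place of 1 and 2 in gdf6Y against del9 in place of 1, and all genes called went from 1338 to 2114 and from 261 to 661. The block with filterByExpr gave 3 and 2 antagonist genes and 2277 genes in gdf6Y against EV, and the block with the length correction 3 and 2, with 11 pathway genes in place of 7 and 748 genes in gdf6Y against del9. In del9 against EV only 4 of 5 pairs correlated above 0.1 (0.0831 to 0.269), so the numbers are not taken as pairs there; the block gave 4 called antagonist genes in place of 3, with 3007 of all 25989 genes called in place of 2425, and turned *Grem1* to 0.001 (from -0.017). In gdf6Y against EV, DESeq2's size factors and the length correction each gave 2 antagonist genes, with 1392 and 1120 of all genes called. In gdf6Y against del9, filterByExpr gave 0 antagonist genes (2 had an unadjusted p below 0.05 in that fit, and DESeq2 called 1, *Fstl1*), and all genes called were 81 with DESeq2, 45 with filterByExpr and 163 with edgeR 4's dispersion.

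Leaving out 1 replicate gave 1 to 2 called antagonist genes in each gdf6Y comparison and 1 to 3 in del9 against EV, with 1 without EV replicate 5 or del9 replicate 5. All genes called ranged from 794 (without gdf6Y replicate 5) to 1751 (without gdf6Y replicate 1) in gdf6Y against EV. In gdf6Y against del9 they ranged from 160 (without del9 replicate 2) to 441 (without del9 replicate 1), and in del9 against EV from 1692 to 2715.

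The sign turned only for values that were not called: in gdf6Y against del9, *Bmper* with the length correction (-0.001, and -0.003 with the block) and, leaving out 1 replicate, *Bmper* (range -0.02 to 0.035), *Fstl3* (-0.039 to 0.02), *Grem1* (-0.05 to 0.026), *Ltbp1* to -0.008 and *Smad4* to -0.002; in gdf6Y against EV, *Grem1* (-0.071 to 0.008), *Chrd* (-0.142 to 0.11) and, with the block and filterByExpr, *Bmp1* to 0; and in del9 against EV, *Grem1* (-0.058 to 0.019). The causes were not tested. Of 902 alternative values, 786 kept direction and side of the threshold, or stayed within 1.5 times for a count. The depth limits *Chrd* most, with about 50 counts per sample, and *Nog*, with none.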

Other observations

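In *Fst* and *Grem1*, the same 2 replicate numbers stood at one end of every group, which was noticed after the values were seen. The 2 highest *Fst* samples of each group were replicates 5 and 2, with 560.3 and 523.1 normalized counts in EV, 612.6 and 592.5 in gdf6Y and 725.3 and 685.9 in del9. The 2 lowest *Grem1* samples of each group were the same numbers, with 3168 and 3164 in EV, 3121 and 3330 in gdf6Y and 3312 and 3212 in del9, while the other samples lay between 3547 and 4050. The 2 lowest *Bmper* samples were replicates 2 and 5 in gdf6Y (800.1 and 791.8) and del9 (774 and 789.3) but not in EV, where replicate 5 was at 791.7 and replicate 2 at 875.2. What a replicate number stands for in these cultures is not given in the sources used here, and the cause of the pattern was not tested.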
